A study of Mus musculus with 30 samples.

Results

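Genes of the synaptic vesicle and of the machinery that releases it were followed in the stroke-denervated spinal cord. The set holds 46 genes chosen by name, and all 46 had a row among the 16995 genes of the deposited expression table. Samples were the intermediate laminae of the cervical hemicord at C5/C6 that had lost its corticospinal input, dissected from adult female C57BL/6 mice after a photothrombotic stroke of the right sensorimotor cortex. Tissue was collected 4, 7, 14, 28 or 42 d after the stroke (days post injury, dpi), and the animals labelled Ctrl underwent a sham operation in which the skull was not illuminated. Values of 29 animals were used, 4 at 4 dpi and 5 in every other group. No group carried a transgene. The animals sequenced had been selected from a larger set by lesion, motor deficit, dissection and RNA, and 1 of the 30 (4 dpi) has no column. Each sample was a piece of tissue that holds neurons and glia together.

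Synaptic vesicles are loaded with transmitter, held in clusters by synapsins, docked at the active zone and fused with the membrane when calcium enters the terminal. Fusion is carried out by SNARE proteins on the vesicle and the plasma membrane, calcium is sensed by synaptotagmins, and the large scaffolds Bassoon and Piccolo, the RIM proteins and the Munc13 proteins organize and prime the release sites. In the spinal cord the genes encoding these proteins are expressed by interneurons and motor neurons, whereas the messenger RNA of descending corticospinal axons resides mainly in the cortex and that of sensory axons in the dorsal root ganglia.

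The deposited value of a gene was named a normalized CPM by the authors and rounded to 0.1 (referred to below as the normalized value). The values of an animal summed to between 714597 and 2256910, not to a fixed total, and the edgeR method that scaled them is not given in the sources used here. The depth of the libraries is unknown, and the median over all genes lay between 10.2 and 11.2 in every animal. No member was listed at 0 in any animal, the lowest value being 0.4 and the highest 1915.6, and all 46 members had a mean of 1 or more. The neuronal nuclear marker Rbfox3 lay between 39.2 and 56.3 in all animals, and the cervical Hox genes Hoxa5 and Hoxc5 lay between 11.8 and 21.3. Chat, a marker of motor neurons, ranged from 7.1 to 54.4. The 18S ribosomal RNA entry (Rn18s-rs5) ranged from 30321 to 52929 in sham animals, from 32754 to 817780 at 14 dpi and from 44755 to 779160 at 28 dpi. At 4 dpi it ranged from 18295 to 114026, at 7 dpi from 36202 to 116302 and at 42 dpi from 78737 to 457302.

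The windows before the transcription start of 4 members are shown because 3 of these genes (Bsn, Pclo and Syn1) rose together at 28 dpi and the other (Rab3a) fell. Each is the 250 bases before the start in the RefSeq table on GRCm38.p6, written 5′ to 3′ on the strand of the gene. Capitals mark the GC box GGGCGG and the core TGACG of the cyclic AMP response element (CRE), each searched on both strands.
Bsn, chr9:108190384-108190633, minus strand: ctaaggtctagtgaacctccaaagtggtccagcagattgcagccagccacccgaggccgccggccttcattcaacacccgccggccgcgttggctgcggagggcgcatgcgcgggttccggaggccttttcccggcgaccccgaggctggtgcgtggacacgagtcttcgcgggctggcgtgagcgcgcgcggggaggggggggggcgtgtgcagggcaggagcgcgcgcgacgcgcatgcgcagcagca
Pclo, chr5:14514668-14514917, plus strand: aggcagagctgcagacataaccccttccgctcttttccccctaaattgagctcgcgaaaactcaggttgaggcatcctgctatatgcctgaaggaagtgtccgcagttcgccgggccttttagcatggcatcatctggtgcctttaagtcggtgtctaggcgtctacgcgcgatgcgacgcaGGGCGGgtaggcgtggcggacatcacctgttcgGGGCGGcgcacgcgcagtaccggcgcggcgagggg
Syn1, chrX:20920919-20921168, minus strand: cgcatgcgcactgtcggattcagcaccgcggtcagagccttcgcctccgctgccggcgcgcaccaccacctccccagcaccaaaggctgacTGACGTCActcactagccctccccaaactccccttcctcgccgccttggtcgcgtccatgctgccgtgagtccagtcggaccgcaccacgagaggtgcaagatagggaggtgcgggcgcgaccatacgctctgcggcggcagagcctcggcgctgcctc
Rab3a, chr8:70754453-70754702, plus strand: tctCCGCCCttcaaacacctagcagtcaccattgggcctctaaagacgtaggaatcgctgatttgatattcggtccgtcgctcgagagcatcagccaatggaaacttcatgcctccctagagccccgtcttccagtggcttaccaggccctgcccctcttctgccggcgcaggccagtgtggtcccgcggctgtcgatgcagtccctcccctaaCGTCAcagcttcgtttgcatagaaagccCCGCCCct
The Bsn window held neither motif. The Pclo window held 2 GC boxes, as did that of Rab3a, which also held 1 CRE core and has a further start in the table. In the Syn1 window the capitals spell the full palindrome TGACGTCA, in which the cores of both strands overlap. A GC box was present in 32.7% of all 32851 windows in the table, a CRE core in 17.8% and the full palindrome in 1.55%. The 35 members matched in the table had 45 windows, of which 27 held a GC box, 8 a CRE core and 1 (Syn1) the palindrome.

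Per kilobase of the longest annotated transcript, the most abundant members in sham animals were the plasma membrane SNARE Snap25 (338 ± 43.5, SD, n = 5), the fusion clamp Cplx1 (235 ± 15.8) and the SNARE-disassembling ATPase Nsf (171 ± 5.35). The calcium sensor Syt2 stood at 97.1 ± 3.81 per kb and its paralog Syt1 at 16.2 ± 2.53. The vesicle SNARE Vamp1 stood at 142 ± 8.01 per kb and Vamp2 at 11.6 ± 1.57. In neither pair did the sham animals overlap. Lowest per kb were Doc2b (0.518 ± 0.151), Unc13b (0.71 ± 0.106), Syt5 (1.15 ± 0.39) and Stx1a (1.53 ± 0.302). These levels depend on which transcript is taken for the length.

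At 28 dpi, 6 members rose against sham and 4 fell, whereas 36 were not called. Bsn, Syn1 and Syn3 showed the largest rises, followed by Pclo, Sv2c and Synj1, and the members that fell were Rab3a, Snap25, Napb and Synpr. Calls were made with limma on log2(value + 0.5) in 1 fit over all animals, at a Benjamini-Hochberg adjusted p under 0.05 over all genes. The 10 called members were 21.7% of the set, and 24.9% of all genes tested were called in the same comparison, so that the share of the set lay near that background. Without sham A12-1, sham A12-3 or A3-3 at 28 dpi 7 members were called, and the share of all genes fell to 12.9%, 17.3% and 13.2%. The 6 that rose were 13.0% of the set (11.9% of all genes rose) and the 4 that fell were 8.70% (13.0% of all genes fell). With a fold above 1.5 in addition, 3 members (Bsn, Syn1 and Syn3) remained, against 4.64% of all genes. The median log2 fold change of the members was -0.03 and that of all genes -0.01. In tissue pieces, fewer cells of a type and less RNA per cell cannot be told apart.

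**Figure D1:**
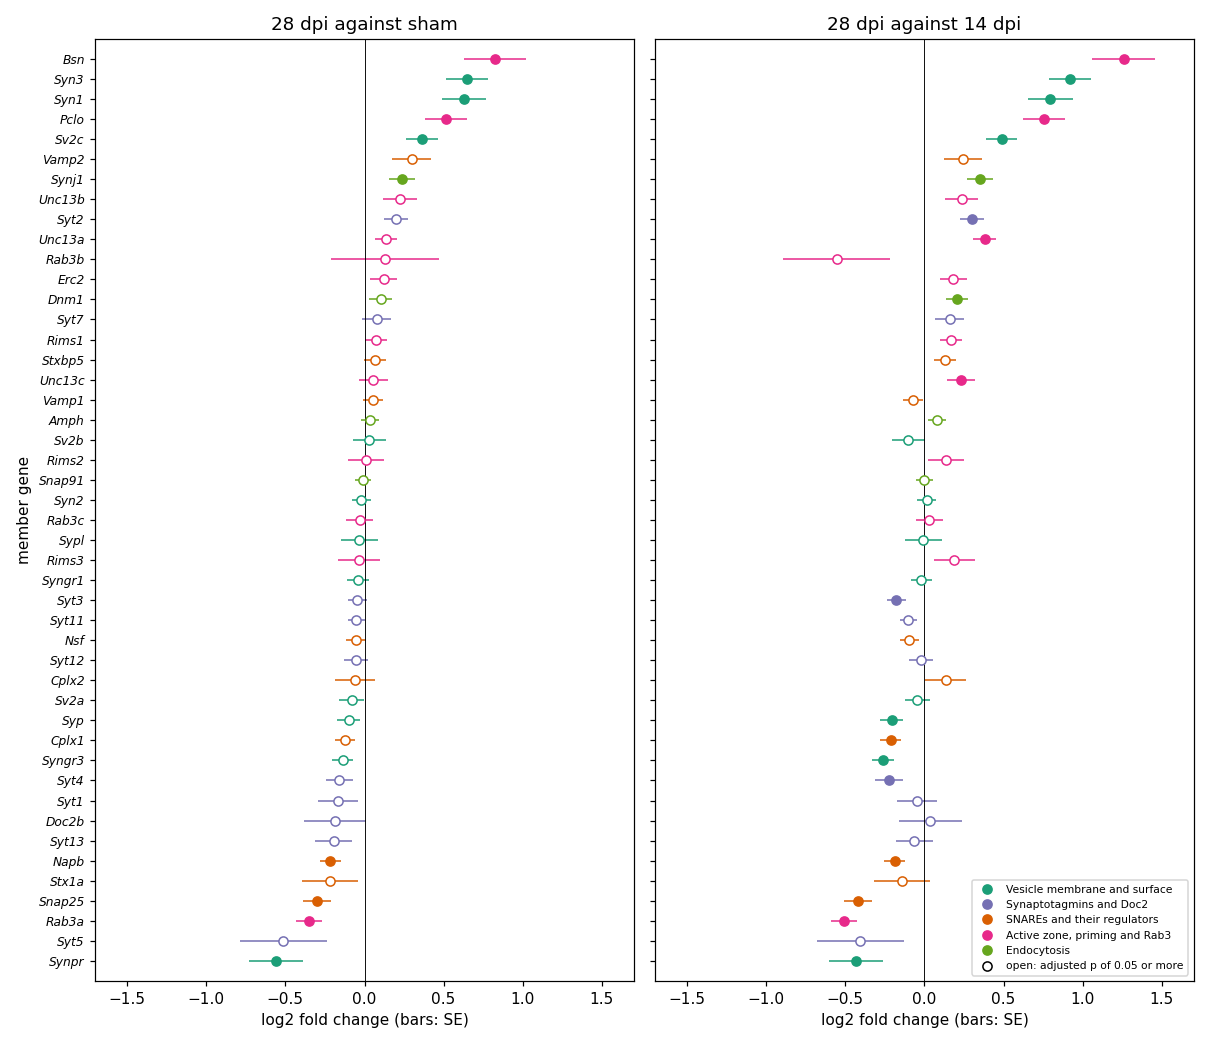
Log2 fold change of each of the 46 members at 28 dpi against sham (left) and against 14 dpi (right), with bars for the SE of the limma fit, colored by role and filled where the adjusted p was under 0.05. On the left 6 members lie filled on the right of 0 and 4 on the left of 0. Both panels use the same 28 dpi animals.

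Among the active zone genes, Bsn and Pclo encode Bassoon and Piccolo, the giant scaffold proteins of the presynaptic active zone. In sham animals the normalized value of Bsn was 96.1, 108.9, 73.3, 119.6 and 120.1, and at 28 dpi it was 129.8, 185.1, 177.6, 177.8 and 256.0. Every animal at 28 dpi lay above every sham animal. The log2 fold change was 0.82 ± 0.197 (SE, with adjusted p = 0.00463 in limma). For Pclo, sham animals had values of 194.6, 230.8, 148.2, 197.9 and 207.7, and animals at 28 dpi 243.5, 294.9, 259.7, 284.1 and 311.6. Again the groups did not overlap (0.52 ± 0.132 on the log2 scale, limma adjusted p = 0.00692). The log2 fold changes of Unc13b (0.22), Unc13a (0.14) and Erc2 (0.12) were not called. Unc13a and Unc13b encode Munc13 priming factors, and Erc2 a further active zone scaffold.

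Of the 11 vesicle genes 3 rose and 1 (Synpr) fell, where 11.9% of all genes rose and 13.0% fell. Synapsins coat the vesicle surface and tether vesicles to each other in the reserve pool. Syn1 values were 62.2, 73.9, 50.6, 69.1 and 69.4 in sham animals and 81.5, 100.4, 108.1, 89.1 and 126.4 at 28 dpi (log2 fold change 0.63 ± 0.14, limma adjusted p = 0.00321). Syn3 values were 27.5, 27.9, 19.5, 25.2 and 23.8 in sham animals and 30.0, 42.2, 33.4, 40.0 and 52.0 at 28 dpi (0.65 ± 0.132, limma adjusted p = 0.0019). No overlap existed in either gene. The third synapsin, Syn2, had means of 125 and 123 (log2 fold change -0.02). Sv2c, one of 3 vesicle glycoproteins of the SV2 family, went from 456.6, 516.2, 410.2, 477.8 and 465.0 to 521.1, 651.5, 564.1, 572.9 and 689.0 (0.36 ± 0.0988, limma adjusted p = 0.0102), also without overlap. Its paralogs Sv2a (-0.08) and Sv2b (0.03) were not called.

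Synj1, a lipid phosphatase needed to uncoat vesicles after endocytosis, was the 1 of 4 endocytosis genes that was called (24.9% of all genes were called). Its values were 188.6, 205.9, 179.9, 191.0 and 197.6 in sham animals and 211.5, 224.7, 211.9, 227.2 and 263.6 at 28 dpi (log2 fold change 0.24 ± 0.0821, limma adjusted p = 0.0339). The groups did not overlap, although the call was lost when any 1 of 7 animals was left out (sham A11-1, A12-1, A12-2 and A12-3, and A3-3, A4-3 and A4-4 at 28 dpi). Dnm1 (0.10), which pinches vesicles off, Amph (0.04) and Snap91 (-0.01) were not called.

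The members that fell encode a SNARE, an adaptor of NSF, a vesicle GTPase and a vesicle membrane protein. Rab3a, the GTPase that links vesicles to RIM, had values of 192.8, 220.1, 268.4, 232.4 and 242.6 in sham animals and of 205.1, 167.9, 222.0, 158.9 and 157.4 at 28 dpi (log2 fold change -0.35 ± 0.0821, limma adjusted p = 0.00427). At 28 dpi 3 of 5 animals lay below all sham animals and 2 inside their range. Snap25 values were 1410.4, 1589.1, 1915.6, 1513.6 and 1822.8 against 1586.8, 1157.1, 1521.0, 1158.7 and 1300.5 (-0.30 ± 0.0884, limma adjusted p = 0.016), with 3 animals at 28 dpi below the sham range. Napb, which encodes beta-SNAP, the neuronal adaptor of NSF, had a mean of 477 ± 22.0 in sham animals and of 411 ± 32.6 at 28 dpi (SD, n = 5 each), a log2 fold change of -0.22. Synpr, a vesicle membrane protein of the synaptophysin family, had means of 9.52 ± 2.19 and 6.30 ± 1.54 and a log2 fold change of -0.56. In none of the 4 did the groups separate. The call of Snap25 was lost without A12-1, A12-3, A3-3 or A4-3, that of Napb without A12-1 or A3-3 and that of Synpr without A12-3 or A4-3. In a fit of only the 2 groups all 4 lost their call. With each animal centred on neuronal markers Snap25, Napb and Synpr lost theirs and Rab3a kept its call. Over the whole set, 6 of 46 members (13.0%) had groups that did not overlap, all of them higher at 28 dpi, and this held for 9.90% of all genes.

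**Figure D2:**
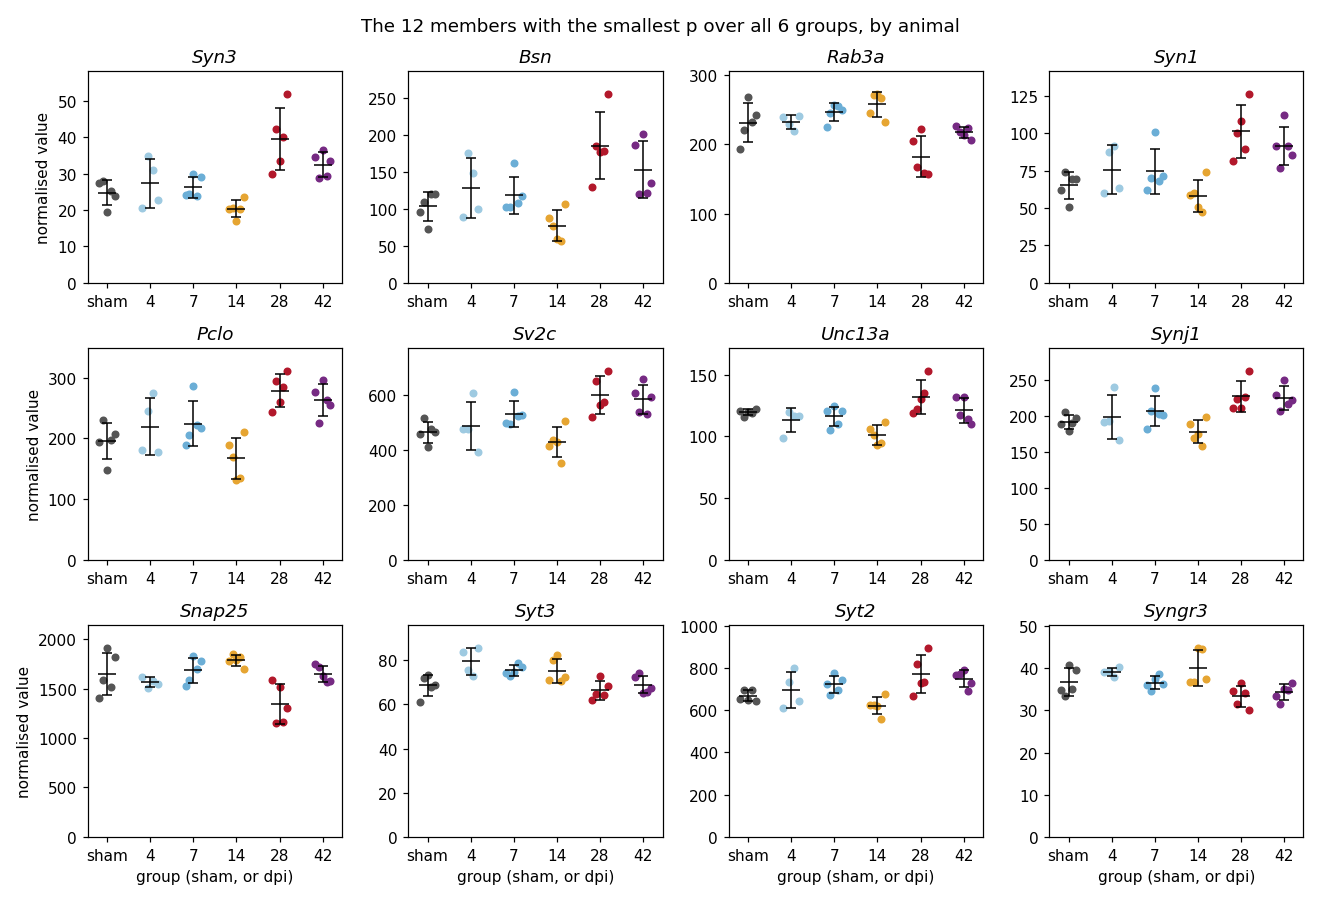
Normalized values (vertical axes, starting at 0) of the 12 members with the smallest p in the test over all 6 groups, in sham animals and at 4 to 42 dpi. Points are animals and bars the mean ± SD. The means of Syn3, Bsn, Syn1, Pclo, Sv2c and Synj1 lie highest at 28 dpi and lowest at 14 dpi, whereas those of Rab3a and Snap25 lie lowest at 28 dpi and highest at 14 dpi.

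Neither Doc2b nor any synaptotagmin of the set was called at 28 dpi, 0 of 10 in limma (unadjusted p under 0.05 for 1, Syt2). Of all genes 24.9% were called there, and 38.5% had an unadjusted p under 0.05. Syt2, a fast calcium sensor, stood 0.20 above sham on the log2 scale (adjusted p = 0.052 in limma). The others ranged from -0.51 for Syt5, which stood at means of 2.02 and 1.40, to 0.08 for Syt7. Among the 9 SNAREs and their regulators the 7 uncalled genes ranged from -0.22 for Stx1a to 0.30 for Vamp2. The 7 uncalled vesicle genes (Syn2, Syp, Sypl, Syngr1, Syngr3, Sv2a and Sv2b) ranged from -0.14 to 0.03. In the active zone and Rab3 list the 9 uncalled genes ranged from -0.03 for Rims3 to 0.22 for Unc13b, with Rims1 at 0.07, Rims2 at 0.01, Rab3b at 0.13, Rab3c at -0.03 and Unc13c at 0.06.

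The 18S ribosomal RNA value was above the sham range in 4 of 5 animals at 28 dpi and in 5 of 5 at 42 dpi. When it entered the limma fit as a covariate, 0 of 46 members and 0 of 16995 genes were called at 28 dpi against sham. The 10 members kept their sign, with adjusted p from 0.0597 for Syn1 to 0.214 for Synpr. One animal at 28 dpi (A4-1) had an 18S value of 44755, inside the sham range. In A4-1 the Bsn value was 177.6, above the sham range, and those of Rab3a (222.0) and Snap25 (1521.0) lay inside it. Of the 4 members that fell, 1 (Napb) lay below the sham range in A4-1, whereas 4 did in A4-3 and 3 in A3-3 and A4-4. In A3-1, with an 18S value of 417970.5, 1 (Napb) did. At 14 dpi the animals with 18S values of 419050 and 817780 had Bsn values of 76.7 and 106.3, inside the sham range. Without the 5 animals whose 18S value exceeded 400000, 9 members were called at 28 dpi (6 higher, 3 lower; 17.7% of all genes). That limit was chosen after seeing the data and left A4-3 (291950) and A4-4 (323193), whose 18S values lie above the sham range. Within groups, across the 29 animals, the 18S value and Bsn had r = 0.0893 (permutation p = 0.698) and rho = 0.0241 (permutation p = 0.916), and r was -0.0577 without the 2 most distant animals. Its relation to Snap25 gave r = -0.246 (permutation p = 0.216) and rho = -0.213 (permutation p = 0.248), and -0.0917 without the 2 most distant. Adjusted over the 6 relations computed, these p were 0.698, 0.916, 0.324 and 0.371.

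**Figure D3:**
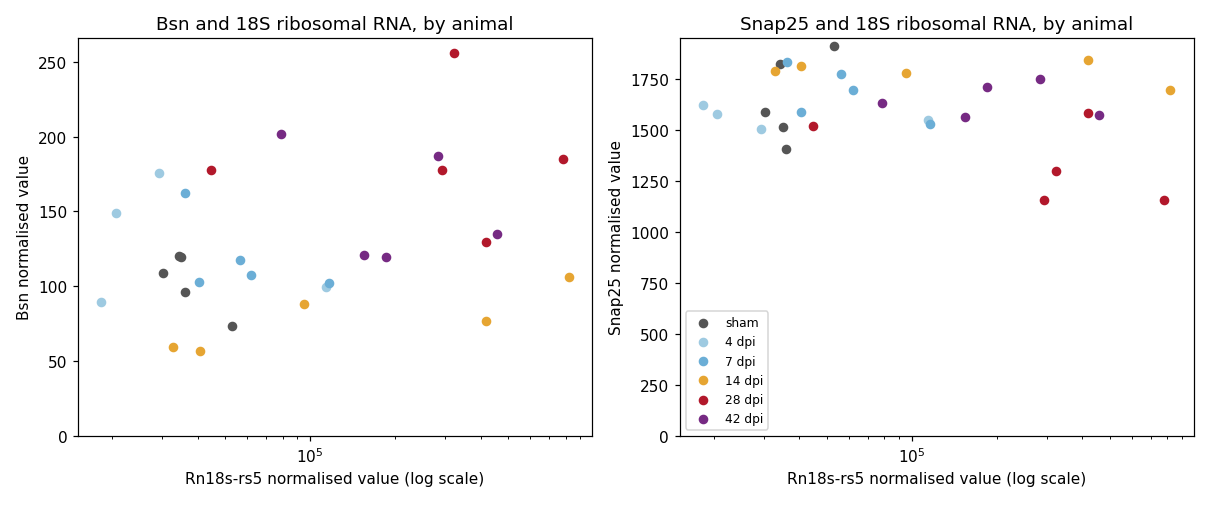
Normalized value of Bsn (left) and Snap25 (right) against that of 18S ribosomal RNA (Rn18s-rs5, log scale) in each of the 29 animals, colored by group. The 28 dpi animal with the lowest 18S value (44755) has a Bsn value of 177.6 and a Snap25 value of 1521.0 (sham 1410.4 to 1915.6), and the 14 dpi animal with the highest (817780) has one of 106.3.

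The balance of the calls changed with the scaling, and the share of all genes called changed with it. With each animal centred on 14 neuronal markers, 5 members rose and 1 fell at 28 dpi (12.7% of all genes were called), and with each animal centred on its median, 7 rose and 3 fell (23.5%). After correction for transcript length and GC content 4 rose and 4 fell (27.5%). A fit of only the 2 groups kept the scaling and the fold changes, and there 6 rose and 0 fell (13.0%). With all columns scaled to 1 common total, of which the 18S entry is a large share in some animals, the median of all genes moved to -0.71 and that of the members to -0.80, with 0 members called higher and 38 lower (66.2% of all genes were called). Syn1 (-0.16), Syn3 (-0.13), Pclo (-0.27), Sv2c (-0.43) and Synj1 (-0.55) then lay below 0 but above this median of all genes. Of the 14 neuronal markers, 2 fell at 28 dpi (Uchl1 and Elavl4) and 0 rose, and their summed value was 6128 to 8188 in sham animals and 6377 to 6897 at 28 dpi. Of 5 markers of excitatory and inhibitory spinal neurons, 1 rose (Slc6a5, the neuronal glycine transporter, with a log2 fold change of 0.30) and 0 fell. The median log2 fold change of these 5 was -0.15 and the lowest -0.26. Of 6 oligodendrocyte markers 4 fell and of 6 astrocyte markers 3 fell. The part of cell composition in the members' values was not tested.

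Against 14 dpi, 19 members were called at 28 dpi, 10 higher and 9 lower. They were 41.3% of the set, and 43.0% of all genes were called (21.0% higher and 21.9% lower). All 10 members called against sham were among them with the same direction. The 9 others were Unc13a, Unc13c, Syt2 and Dnm1, which were higher, and Syp, Syngr3, Syt3, Syt4 and Cplx1, which were lower. Log2 fold changes reached 1.26 ± 0.197 for Bsn (limma adjusted p = 3.52e-05), 0.92 ± 0.132 for Syn3, 0.80 ± 0.14 for Syn1 and 0.76 ± 0.132 for Pclo. These were the 4 members with a fold above 1.5, a limit that 11.8% of all genes passed. The largest falls were -0.51 ± 0.0821 for Rab3a (limma adjusted p = 4.25e-05), -0.43 for Synpr and -0.42 ± 0.0884 for Snap25. Rab3b had a value of -0.56 and was not called. Both comparisons use the same 28 dpi animals. Of the 14 neuronal markers 8 were lower and 1 higher at 28 than at 14 dpi (median -0.25), and the sum of 32 mitochondrial genes was 69980 to 116100 at 14 dpi, 58350 to 105100 at 28 dpi and 45130 to 65910 in sham animals. Their part in the change was not tested. Centred on the neuronal markers, which moved the median of all genes to 0.24, 19 members were called higher and 1 lower (45.0% of all genes were called). After correction for transcript length and GC content 4 were higher and 14 lower (40.4%).

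The groups of 14 and 28 dpi did not overlap for 12 members (26.1%; 22.0% of all genes), of which Syn1, Syn3, Sv2c, Unc13a, Bsn, Pclo, Dnm1 and Synj1 were higher at 28 dpi and Syp, Syngr3, Snap25 and Rab3a lower. Bsn stood at 88.1, 76.7, 59.6, 56.8 and 106.3 at 14 dpi, and Snap25 at 1779.1, 1847.1, 1788.6, 1817.5 and 1697.9. Unc13a stood at 105.6, 101.2, 92.6, 94.3 and 111.4 at 14 dpi and at 118.7, 121.9, 130.1, 135.4 and 153.2 at 28 dpi, with sham animals between 115.9 and 122.5. All 14 dpi animals thus lay below the sham range (log2 difference -0.24), which also held for Dnm1 (-0.11). These 2 members (4.35%; 2.07% of all genes) were the ones without overlap between 14 dpi and sham, and limma called neither. Syt2 values were 626.1, 625.2, 621.4, 560.5 and 676.5 at 14 dpi and 667.8, 820.6, 728.9, 735.1 and 896.7 at 28 dpi, and 4 of 5 animals at 28 dpi lay above all at 14 dpi. Syngr3, a vesicle membrane protein, stood at 36.8, 36.8, 44.9, 44.5 and 37.5 at 14 dpi and at 34.5, 31.4, 36.5, 34.1 and 30.0 at 28 dpi. Syt3, which is a synaptotagmin of high calcium affinity, stood at 71.0, 79.9, 82.3, 70.5 and 72.3 at 14 dpi and at 62.0, 64.8, 72.9, 64.2 and 68.1 at 28 dpi, with 1 animal inside the 14 dpi range.

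At 4, 7 and 14 dpi no member was called against sham (0 of 46 each in limma; unadjusted p under 0.05 for 1, 1 and 5, or 2.17%, 2.17% and 10.9%). Among all genes 0.106%, 0.0294% and 0.00588% were called, and 5.14%, 5.84% and 11.6% had an unadjusted p under 0.05. The extreme values at 4 dpi were 0.28 for Bsn and 0.21 for Syt3 on one side and -0.28 for Syt5 and -0.17 for Rims2 on the other. Syt3 was the member with an unadjusted p under 0.05 at 4 and at 7 dpi. At 7 dpi Vamp2 (0.24) and Pclo (0.20) stood highest and Rims2 (-0.18) and Syt5 (-0.17) lowest. At 14 dpi Rab3b, a paralog of Rab3a, stood highest with 0.68, on values from 8.2 to 25.0 against 6.0 to 14.3 in sham animals, followed by Rab3a with 0.16. Lowest at 14 dpi were Bsn (-0.43, limma adjusted p = 0.411) and Syn3 (-0.27).

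No member was called at 42 dpi against sham either (0 of 46 in limma, unadjusted p under 0.05 for 8 or 17.4%). Of all genes 0.0235% were called, and 14.8% had an unadjusted p under 0.05. The sham animals are the same as in the comparison at 28 dpi, and the 18S value at 42 dpi (78737 to 457302) did not overlap with that of sham animals. Syn1 had values of 91.4, 77.0, 112.0, 91.3 and 85.3 at 42 dpi (log2 fold change 0.49, limma adjusted p = 0.122), Syn3 of 34.6, 28.9, 36.4, 29.3 and 33.4 (0.39), and Sv2c of 605.7, 539.0, 658.8, 529.3 and 594.2 (0.33). All 5 animals exceeded every sham animal in these genes and in Synj1 (0.22). These 4 members were 8.70% of the set, and 3.31% of all genes did not overlap. Bsn (0.55) and Pclo (0.44) had 4 of 5 animals above the sham range. Synpr (-0.33) and Syt5 (-0.30) stood lowest. Snap25 (0.01) and Rab3a (-0.08) were near their sham values. Between 42 and 28 dpi 0 members were called in limma, with unadjusted p under 0.05 for 4 (Snap25, Cplx1, Napb and Rab3a, all higher at 42 dpi), which is 8.70% of the set. Of all genes 1.94% were called, and 21.1% had an unadjusted p under 0.05. The called share rested on single animals, with 7.52% without A3-1, 5.52% without A4-1, 0.00588% without A3-3 and 0.0235% without A1-4. In the test over all 6 groups 12 members were called (26.1%; 31.6% of all genes).

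**Figure D4:**
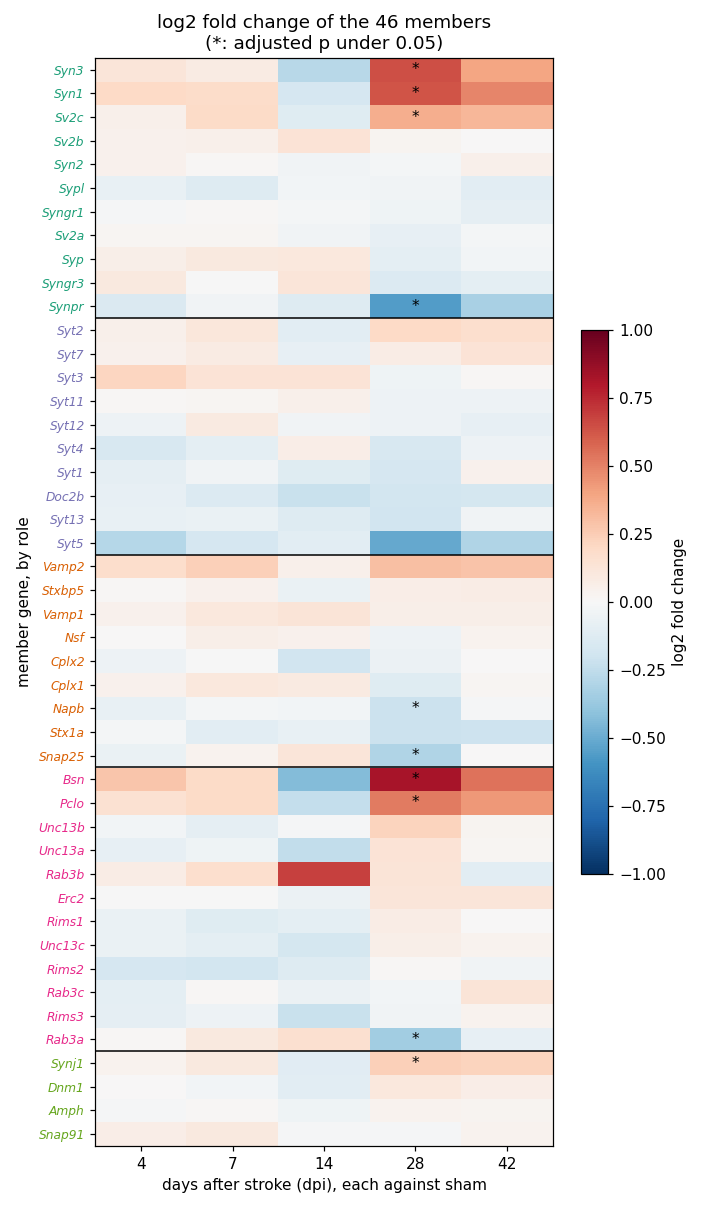
Log2 fold change against sham of the 46 members (rows, grouped by role and colored as in the plot of fold changes) at the 5 time points after stroke (columns), with asterisks where the limma adjusted p was under 0.05. The 10 asterisks stand at 28 dpi. All columns share the sham animals.

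Covariation was examined between animals of a group. Both genes of a pair come from the same library and share its scaling. Only 6 relations were computed, so how common a given r is among all gene pairs is not known. After subtraction of group means, Bsn and Pclo had r = 0.884 and rho = 0.903 over 29 animals, and Bsn and Syn1 had r = 0.913 and rho = 0.918 (permutation within groups p = 1e-05, the smallest 100000 permutations can give, and 3e-05 adjusted over 6 relations, for each). Without the 2 most distant animals r was 0.894 and 0.904. Bsn and Rab3a had r = -0.373 (permutation p = 0.055, adjusted 0.11) and rho = -0.382 (permutation p = 0.0605, adjusted 0.121), and -0.314 without the 2 most distant. Bsn and Snap25 had r = -0.17 (permutation p = 0.404, adjusted 0.485) and rho = -0.179 (permutation p = 0.378, adjusted 0.453), and -0.139 without them.

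The members differ widely in transcript length, and their log2 fold changes correlated with it. The longest annotated transcripts were those of Pclo (20084 bases) and Bsn (15938 bases), and that of Rab3a (1556 bases) was the shortest. The 6 members that rose at 28 dpi had a median length of 8096 bases (3261 to 20084), the 4 that fell 4351 (1556 to 4880) and the 36 others 4703. Across the 46 members, which are not independent replicates, the log2 fold change at 28 dpi correlated with log10 length with r = 0.547 (rho = 0.566), at 14 dpi with r = -0.471 (rho = -0.436) and at 42 dpi with r = 0.503 (rho = 0.536). Across 16919 genes the same r was 0.182, -0.223 and 0.105. For GC content the members had r = 0.13 at 28 dpi. Gene length, the genomic span with introns, is a different measure from transcript length. With a correction for gene length 6 members rose and 5 fell at 28 dpi (23.7% of all genes were called). Of the 6 that had risen Synj1 was no longer called. After the correction for transcript length and GC content, which was added after seeing the data, Pclo, Sv2c and Synj1 were no longer called. The comparisons share the sham animals.

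**Figure D5:**
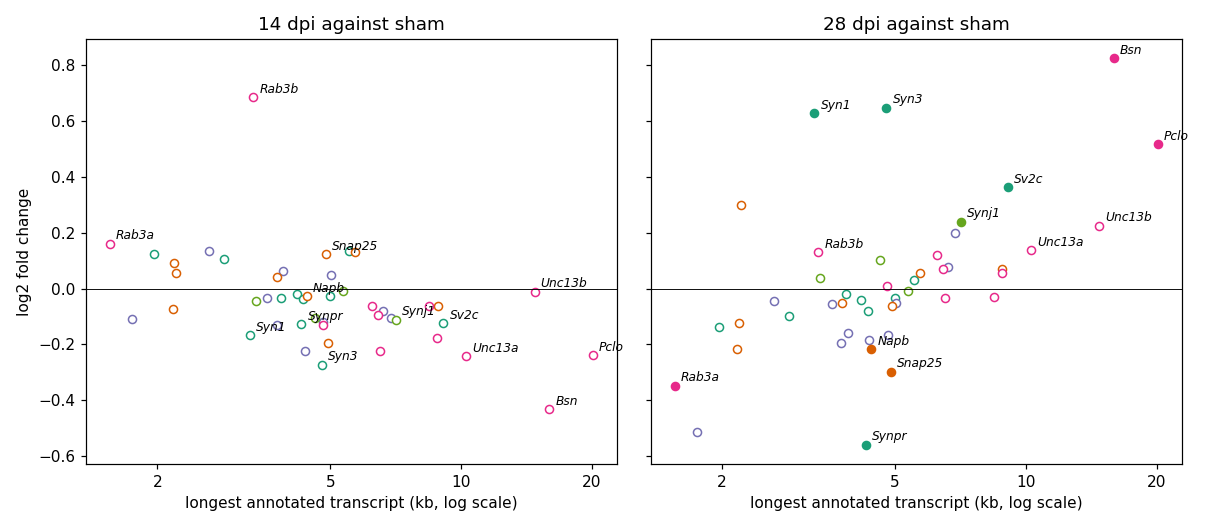
Log2 fold change of the 46 members at 14 dpi (left) and 28 dpi (right) against sham, plotted against the length of the longest annotated transcript (kb, log scale), colored by role as in the plot of fold changes and filled where called. Bsn and Pclo, the longest, have values of -0.43 and -0.24 in the left panel and of 0.82 and 0.52 in the right panel.

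Ratios between 9 pairs of related members were compared within animals, which removes any scaling shared by both genes. None of the 45 comparisons with sham passed the adjustment (exact permutation tests, Benjamini-Hochberg over 45; unadjusted p under 0.05 for 6). A single ratio at the smallest possible p could not pass this adjustment. The ratio of Syn1 to Syn2 came nearest. On the log2 scale of values not divided by length it was -0.95 ± 0.215 in sham animals and -0.30 ± 0.264 at 28 dpi, a difference of 0.65 without overlap (exact two-sided permutation p = 0.00794, the smallest that 5 against 5 animals can give, adjusted 0.179). At 42 dpi it was -0.50 ± 0.205 (exact permutation p = 0.00794, adjusted 0.179). For Bsn to Pclo the difference at 28 dpi was 0.31 (exact permutation p = 0.0397, adjusted 0.357) and at 14 dpi -0.20 (0.0476, adjusted 0.357). The others with an unadjusted p under 0.05 were Unc13a to Unc13b at 14 dpi (-0.23, exact permutation p = 0.0397) and Rab3a to Rab3c at 42 dpi (-0.21, exact permutation p = 0.0317), both with an adjusted p of 0.357.

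The library kit did not mark strand, and 16 members share exon bases with another annotated gene. Syn3 shares 1733 bases with Timp3 on the opposite strand, a gene with a sham mean of 84.5 against 24.8 for Syn3, and reads of the pair cannot be told apart there. Timp3 had a log2 fold change of 0.04 at 28 dpi against sham. Unc13a shares 495 bases with Colgalt1 (-0.26) and Syn1 shares 9 with Araf (-0.38), both of which fell while Syn1 rose.

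Of 50 further genes of the vesicle cycle, 10 rose at 28 dpi against sham, 8 fell and 32 were not called (11.9% of all genes rose and 13.0% fell), with a median log2 fold change of -0.02. Those that rose included the Rab3 effector Rph3a (0.42), the RIM-binding protein gene Rimbp2 (0.29) and the dynamin gene Dnm3 (0.37). The clathrin light chains Clta (-0.32) and Cltb (-0.29), the clathrin adaptor subunits Ap2m1 (-0.26) and Ap2s1 (-0.46), the gamma-SNAP gene Napg (-0.20) and Doc2a (-0.48) fell, whereas the large adaptor subunit Ap2a1 rose (0.15).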

How the data were processed

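RNA of 30 mice was sequenced after ribosomal RNA depletion, and 29 have a column (single-end reads, strand not marked). The authors quantified reads on mm10 transcripts with SALMON and Tximport, normalized with edgeR (version 3.14.0 in the submitters' processing notes), removed low genes, and deposited normalized CPM rounded to 0.1, treated here as a score. The deposited fold changes and p-values of the authors were not used. Groups came from the labels. The members, lists and tests were chosen with earlier results of these data known. Log2(value + 0.5) was fitted with limma 3.58.1 (R 4.3.3, mean-variance trend, 1 mean per group) and p adjusted by Benjamini-Hochberg over 16995 genes. Ratios were compared with exact two-sided permutation tests (Python 3.11.15, scipy 1.17.1). Values of every animal are given for the 12 members with the smallest p over all 6 groups. Also named were called members and, at each time point, the 2 with the largest and the 2 with the smallest fold change. Other genes were named after their values were seen. Transcript lengths and overlaps are from GENCODE M21 (GRCm38). The fit was tested on simulated data. Alternatives were other scalings, pseudocounts of 1 and 0.05, a filter on a mean of 1, covariates, other variance settings, a label unit block, single animals left out, and, added after seeing the data, a correction for transcript length and GC content and the removal of animals with high 18S values.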

Additional observations from a re-analysis of the deposited data

Results flagged for a closer look

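In 78 groups of values (the 12 members and the median over all members, each in 6 groups of animals) 4 held an animal far from the others; chance gives about 5% of groups. Animal A7-4 at 7 dpi stood apart in 3 of them, with 162.1 for Bsn (others 102.1 to 117.4), 100.6 for Syn1 (others 62.1 to 71.2) and 612.0 for Sv2c (others 494.6 to 527.1). Animal A10-1 at 4 dpi had 98.6 for Unc13a (others 116.3 to 119.9).

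The change between 14 and 28 dpi exceeded a fold of 1.5 with a limma adjusted p under 0.05 in 4 members. The log2 differences were 1.258 for Bsn (adjusted p = 3.52e-05), 0.922 for Syn3 (1.79e-05), 0.796 for Syn1 (8.23e-05) and 0.756 for Pclo (7.69e-05), higher at 28 dpi in 5 of 5 animals for each.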

How the results depend on the processing

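The 10 members called at 28 dpi against sham became 38 with columns scaled to a common total (66.2% of all genes called), 6 centred on neuronal markers (12.7%), 0 with 18S ribosomal RNA as covariate (0%), 6 when other groups were left out of the fit (13.0%) and 3 with a fold over 1.5. Leaving out single animals gave 7 to 12 (12.9% to 29.6% of all genes). The 19 called between 28 and 14 dpi became 1 with the common total (4.28% of all genes, from 43.0%) and 4 with a fold over 1.5, and 16 to 21 with an animal left out (35.7% to 44.4%). Between 42 and 28 dpi the 0 calls became 1 with quantile normalization (1.49% of all genes), a gene length correction (2.65%), a robust fit (2.04%) or the transcript length and GC correction (0.836%), 2 with a label unit block (4.39%), and 0 to 3 with an animal left out, the highest without A3-1 (7.52%). The 12 calls over all 6 groups became 44 with the common total (66.6% of all genes) and 3 with a fold over 1.5. At 4, 7, 14 and 42 dpi against sham no setting gave a call.

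Signs turned at 28 dpi against sham with the common total for Syn1 (-0.16), Syn3 (-0.13), Sv2c (-0.43), Pclo (-0.27) and Synj1 (-0.55). Against 14 dpi they turned with neuronal centring for Syp (0.019), Syt3 (0.049), Syt4 (0.003), Cplx1 (0.012) and Napb (0.037), with the common total for Unc13c (-0.032) and Dnm1 (-0.058), both above the median of all genes there (-0.22), and for Unc13c also with the gene length (-0.017) and the transcript length and GC correction (-0.075). The cause was not tested. No paired analysis was possible because the groups share no replicate numbers. The label units are the A numbers of the animals, whose meaning is not stated. Of them A3 holds animals of both 28 and 42 dpi and the others lie within 1 group, so unit and group can hardly be told apart. The depth is unknown. For low members such as Syt5 and Doc2b the rounding step of 0.1 is a larger share of the value, and its effect was not tested.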
